A study of Homo sapiens with 12 samples.

Results

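Keratins are the intermediate filament proteins of epithelial cells, and 10 keratin genes of sebocytes were followed here: KRT7, KRT8, KRT18 and KRT19 of simple epithelium, KRT6A, KRT16 and KRT17 of activated epithelium, and KRT5, KRT14 and KRT15 of the basal layer. They were taken by gene symbol from the tables of the study and joined by gene identifier, and all 10 were found among the 60630 genes present in both tables. The cells were SZ95 sebocytes, an immortalised line established from human facial sebaceous gland, and RNA was sequenced in 12 libraries. The 4 groups of 3 libraries were LA+RVT, LA, PGN+RVT and PGN. RVT is resveratrol according to the series title; the labels leave LA and PGN as abbreviations, taken here to mean linoleic acid and peptidoglycan. Every group therefore carried a stimulus, none was untreated, and doses and times are not given in the sources used here. All libraries came from 1 cell line. The replicates were described as biological but not as separate donors or culture days, so each p-value reflects only how far these libraries spread, which may be technical.

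A keratin filament is built from pairs of a type I and a type II keratin, and which pairs a cell makes marks its kind of epithelium. KRT8 (type II) pairs with KRT18 (type I) in simple epithelia, KRT5 (type II) with KRT14 (type I) in the basal layer of stratified epithelia, and KRT6A (type II) with KRT16 or KRT17 (type I) in wounded, inflamed or hyperproliferative skin. In the sebaceous gland KRT7 is used as a marker of sebocytes, and KRT15 and KRT19 mark basal and follicular progenitor cells. The type II members lie on chromosome 12 between positions 52232520 and 52949954 of GRCh38, and the type I members on chromosome 17 between 41513743 and 41624842, except KRT18, which lies on chromosome 12 at 52948871 to 52952901.

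Expression was given as TPM, a share of the library that is corrected for transcript length, so levels may be compared between genes, while the sequencing depth is unknown. Each library had between 14489 and 15452 genes at 1 TPM or more. Of the 19 sebocyte markers listed, 11 reached a mean of 1 TPM in the LA table and 10 in the PGN table. PPARG, the nuclear receptor of sebocyte differentiation, averaged 22.3 ± 1.299 TPM in LA+RVT, 23.0 ± 1.19 in LA, 23.1 ± 0.864 in PGN+RVT and 38.7 ± 0.832 in PGN (SD, n = 3 each). AWAT2, which makes wax esters, and the melanocortin receptor gene MC5R, both of mature sebocytes, were listed at 0 in every library. Of the markers of other cell types, 4 of 10 for fibroblasts, 3 of 6 for melanocytes, 3 of 8 for immune cells, 1 of 6 for endothelium and 0 of 6 for Merkel cells reached 1 TPM in the LA table, and 3, 2, 3, 1 and 0 in the PGN table. The fibroblast markers summed to between 16.8 and 20.1 TPM in LA+RVT and between 12.4 and 19.0 TPM in LA, with DCN at 0, and to between 14.9 and 19.6 TPM in PGN+RVT and between 13.4 and 18.6 TPM in PGN. The immune markers summed to between 59.4 and 62.5 TPM in LA+RVT and between 62.6 and 66.4 TPM in LA, and to between 55.9 and 58.9 TPM in PGN+RVT and between 38.3 and 43.0 TPM in PGN. CD68, a lysosomal protein of macrophages that other cells make too, carried most of this. The melanocyte markers, with TYR at 0, summed to between 31.3 and 33.6 TPM in LA+RVT and between 25.7 and 27.4 TPM in LA, and to between 29.8 and 31.2 TPM in PGN+RVT and between 19.4 and 24.98 TPM in PGN. The endothelial markers, of which CDH5 alone reached 1 TPM, summed to between 7.30 and 8.11 TPM in LA+RVT and between 17.6 and 18.1 TPM in LA, and to between 23.4 and 24.2 TPM in PGN+RVT and between 24.9 and 26.5 TPM in PGN. The Merkel cell markers summed to at most 1.83 TPM. The part of these levels in the results on keratins was not tested. Vimentin (VIM), the filament protein of fibroblasts, stood at 1.36 ± 0.408 TPM in LA+RVT, 0.797 ± 0.439 in LA, 2.58 ± 1.59 in PGN+RVT and 1.51 ± 0.870 in PGN (SD, n = 3 each).

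Several of the genes have near copies, and how far the copies can be told apart bears on their values. The stretch of the KRT16 coding sequence that is most like KRT14 is shown here with the same stretch of KRT17, from GENCODE 29 on GRCh38 (chromosome 17, minus strand, 120 bases, coding positions 316 to 435 of KRT16, 310 to 429 of KRT14 and 217 to 336 of KRT17). Capitals mark bases that differ from KRT16.
KRT16: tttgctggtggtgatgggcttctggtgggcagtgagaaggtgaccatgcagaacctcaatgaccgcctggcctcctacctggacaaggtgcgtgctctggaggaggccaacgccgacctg
KRT14: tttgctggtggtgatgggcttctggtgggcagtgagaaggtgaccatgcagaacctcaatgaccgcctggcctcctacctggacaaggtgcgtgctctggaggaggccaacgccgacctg
KRT17: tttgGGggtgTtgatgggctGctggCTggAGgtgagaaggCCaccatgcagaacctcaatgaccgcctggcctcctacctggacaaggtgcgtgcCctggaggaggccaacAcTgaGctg
KRT16 and KRT14 are identical over these 120 bases, and KRT17 differs from KRT16 at 14 of them. Over the coding positions aligned without gaps, KRT16 was 88.6% identical to KRT14 (1234 of 1392) and 80.8% to KRT17 (1039 of 1286). The whole coding sequence of KRT16 has 1422 bases, and 12.7% and 1.17% of its 50-base windows occur unchanged in KRT14 and in KRT17.

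The type II gene KRT6A has closer copies in KRT6B and KRT6C, which lie beside it on chromosome 12. Coding positions 626 to 745 (minus strand) are the 120 bases where KRT6A and KRT6B differ most, and capitals mark bases that differ from KRT6A.
KRT6A: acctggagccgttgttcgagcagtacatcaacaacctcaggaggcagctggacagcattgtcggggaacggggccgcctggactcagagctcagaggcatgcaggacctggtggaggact
KRT6B: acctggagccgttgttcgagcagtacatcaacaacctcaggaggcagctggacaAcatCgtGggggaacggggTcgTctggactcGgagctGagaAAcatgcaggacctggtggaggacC
KRT6C: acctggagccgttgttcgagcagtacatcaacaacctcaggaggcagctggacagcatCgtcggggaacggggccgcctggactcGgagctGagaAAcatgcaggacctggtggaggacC
Even here KRT6B differs from KRT6A at only 10 of 120 bases and KRT6C at 6. The coding sequences were 97.5% and 97.9% identical to KRT6A, and 38.1% and 47.3% of the 50-base windows of KRT6A occur unchanged in KRT6B and KRT6C. How reads shared by such copies were divided cannot be seen in TPM, so the levels of KRT6A, KRT6B, KRT6C, KRT14 and KRT16 carry that uncertainty. The tables also hold 51 pseudogenes named for KRT8 and 67 for KRT18, whose sums came to at most 0.415% and 0.177% of the parent gene in any library. KRT8 and KRT18 overlap at their starts on opposite strands. The strand setting of the quantification was not given in the sources used here.

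Simple-epithelial keratins dominated in every group. In the LA group KRT8 averaged 1754 TPM, KRT19 1650, KRT18 1603 and KRT7 1203, against 326 for KRT17, 189 for KRT5, 133 for KRT6A, 63.7 for KRT16, 18.5 for KRT15 and 1.77 for KRT14. In the LA libraries no neighbours in this order overlapped in their values. In LA+RVT libraries KRT18 stood above KRT19, and KRT16 and KRT6A overlapped at 162 to 213 and 178 to 193 TPM. In the PGN table KRT8 was again highest, with 3104 TPM in PGN+RVT and 2934 in PGN, and KRT14 lowest, with 11.2 and 9.11. KRT18 and KRT19 overlapped in PGN+RVT libraries, at 2392 to 2476 and 2337 to 2437 TPM, and no neighbours overlapped in PGN libraries. KRT8 ranked 67th of all genes in LA libraries and 36th in PGN libraries.

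**Figure D1:**
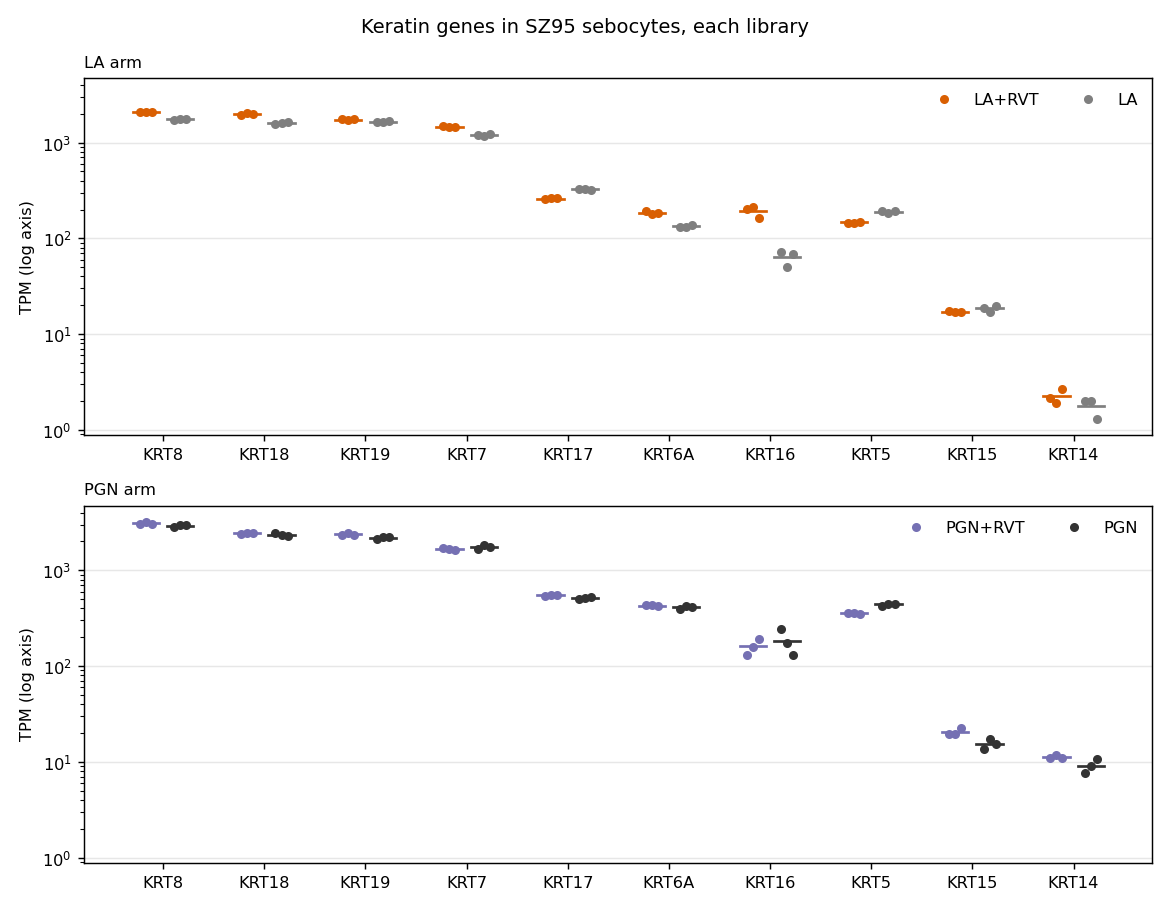
TPM (log axis) of the 10 keratin genes in each library, with LA+RVT and LA above and PGN+RVT and PGN below; points are libraries and bars are means of 3. The simple-epithelial genes lie at 1171 TPM or more in every library, KRT14 at 11.7 TPM or less, and the 3 LA+RVT libraries stand far above the 3 LA libraries for KRT16.

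The first comparison set LA+RVT against LA and asked what resveratrol did to these genes under the lipid stimulus. Of the 10 genes, 8 passed the test, 6 of them higher and 2 lower with RVT, where 15.7% of all 15409 tested genes passed (10.7% higher and 5.07% lower). KRT16 rose most, to a mean of 193 TPM in LA+RVT against 63.7 in LA, while KRT6A, KRT7, KRT8, KRT18 and KRT19 rose by less, and KRT17 and KRT5 fell. The groups did not overlap for these 8 genes, where 36.2% of the tested genes did not. Over the 10 genes the log2 fold change had a median of 0.25, beside 0.036 over the whole table, and all 10 had passed the filter on low values, a mean of 1 TPM. Tests here and below were made with limma on log2(TPM + 1), a scale on which changes of low genes come out too small, with Benjamini-Hochberg adjustment over all tested genes and a threshold of 0.05; fold changes are given with the standard error (SE).

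Of the simple-epithelial genes, KRT8, the type II keratin of simple epithelia, stood at 2080, 2093 and 2103 TPM in LA+RVT and at 1721, 1759 and 1782 TPM in LA. Its partner KRT18 stood at 1962, 2018 and 1974 TPM in LA+RVT and at 1574, 1610 and 1627 TPM in LA. KRT7, the sebocyte marker, stood at 1492, 1465 and 1455 TPM in LA+RVT and at 1204, 1171 and 1234 TPM in LA. Every LA+RVT library lay above every LA library for each of these genes. The log2 fold changes were 0.25 ± 0.018 for KRT8 (adjusted p = 0.000488), 0.31 ± 0.020 for KRT18 (adjusted p = 0.000374) and 0.29 ± 0.024 for KRT7 (adjusted p = 0.000805, limma). KRT19, the smallest keratin, made in many simple epithelia and in follicular progenitors, stood at 1752, 1715 and 1747 TPM in LA+RVT and at 1630, 1633 and 1687 TPM in LA. Its rise was the smallest, 0.075 ± 0.020 (adjusted p = 0.0475), and its call was lost in 9 of 14 alternatives. It was lost without LA replicates 1 and 2 (adjusted p = 0.120 and 0.140), without LA+RVT replicates 1, 2 and 3 (0.119, 0.0792 and 0.122), with library medians equalised (0.484) and without mitochondrial and ribosomal protein genes in the scaling (0.443). TPM in bulk RNA cannot tell more cells of one kind from more RNA per cell.

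The activation keratins went different ways in the LA arm. KRT16, the type I keratin of wounded and psoriatic skin, stood at 203, 213 and 162 TPM in LA+RVT and at 71.7, 50.6 and 68.8 TPM in LA. The lowest LA+RVT library lay far above the highest LA library. Its log2 fold change was 1.59 ± 0.15 (adjusted p = 0.00137). KRT6A, a type II partner of KRT16, stood at 193, 178 and 182 TPM in LA+RVT and at 131, 131 and 136 TPM in LA, a log2 fold change of 0.47 ± 0.039 (adjusted p = 0.000805, limma). KRT17, a type I keratin of hair follicle and wound edge, fell to 255, 264 and 262 TPM in LA+RVT, against 331, 328 and 320 TPM in LA. Its log2 fold change was -0.32 ± 0.026 (adjusted p = 0.000702), with no overlap between the groups. KRT6A and KRT16 thus moved up while KRT17 moved down, and each of these calls held under all 14 alternatives.

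Of the basal keratins, KRT5 fell to 145, 146 and 148 TPM in LA+RVT, against 192, 184 and 192 TPM in LA, with a log2 fold change of -0.37 ± 0.029 (adjusted p = 0.000669). KRT14, its usual type I partner, was near the bottom of the measured range, at 2.17, 1.90 and 2.70 TPM in LA+RVT and at 2.0, 2.02 and 1.3 TPM in LA (log2 fold change 0.24, 95% interval -0.18 to 0.66, adjusted p = 0.426). KRT15, a keratin of basal cells and of the follicular bulge, stood at 17.4, 17.04 and 17.2 TPM in LA+RVT and at 18.8, 16.9 and 19.9 TPM in LA (log2 fold change -0.097, 95% interval -0.26 to 0.067, adjusted p = 0.400). The groups overlapped for KRT14 and KRT15, and neither passed the test.

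The second comparison set PGN+RVT against PGN and asked the same under the inflammatory stimulus. Here 3 of the 10 genes passed, KRT15 and KRT19 higher and KRT5 lower, where 15.6% of all 14622 tested genes passed (10.6% higher and 4.92% lower). Over the 10 genes the log2 fold change had a median of 0.070, beside 0.064 over the whole table. KRT5 fell to 360, 358 and 353 TPM in PGN+RVT, against 428, 446 and 447 TPM in PGN, with a log2 fold change of -0.30 ± 0.034 (adjusted p = 0.00206, limma). It was the gene of the 10 that was lower with RVT in both arms, and its call held under all 14 alternatives in each. The other 2 calls were weak: each was lost in at least 9 of 14 alternatives.

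KRT15 stood at 19.8, 19.4 and 22.8 TPM in PGN+RVT and at 13.7, 17.5 and 15.2 TPM in PGN (log2 fold change 0.40 ± 0.10, adjusted p = 0.0419). Its call was lost without PGN replicates 1 and 3 (adjusted p = 0.0886 and 0.0926) and without PGN+RVT replicates 1, 2 and 3 (0.0957, 0.0785 and 0.123). KRT19 stood at 2337, 2437 and 2350 TPM in PGN+RVT and at 2141, 2209 and 2209 TPM in PGN (log2 fold change 0.12 ± 0.029, adjusted p = 0.0355, limma). The call of KRT19 was lost without PGN replicates 1, 2 and 3 (adjusted p = 0.0632, 0.0881 and 0.0615) and without PGN+RVT replicates 1, 2 and 3 (0.0885, 0.109 and 0.0895). With library medians equalised neither gene passed (adjusted p = 0.0880 for KRT15 and 0.463 for KRT19), nor with the replicate number of the titles as a block (0.0671 and 0.0698).

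The other 7 genes did not pass in the PGN arm, and their 95% intervals reflect only the spread of these libraries under the main scaling. KRT8 stood at 3070, 3165 and 3076 TPM in PGN+RVT and at 2846, 2971 and 2984 TPM in PGN, without overlap (log2 fold change 0.081, 95% interval 0.012 to 0.15, adjusted p = 0.112). KRT18 stood at 2392, 2476 and 2450 TPM in PGN+RVT and at 2443, 2334 and 2256 TPM in PGN, with overlap (0.058, 95% interval -0.025 to 0.14, adjusted p = 0.318). KRT7 stood at 1718, 1668 and 1632 TPM in PGN+RVT and at 1687, 1820 and 1751 TPM in PGN, also with overlap (-0.067, 95% interval -0.15 to 0.020, adjusted p = 0.273). None of these 95% intervals reached the fold change the same gene had in the LA arm.

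KRT16 spread widely among libraries of the PGN arm, at 132, 160 and 193 TPM in PGN+RVT and at 242, 173 and 131 TPM in PGN. The groups overlapped almost wholly (log2 fold change -0.15, 95% interval -0.67 to 0.38, adjusted p = 0.711), and without PGN replicate 1 the value was 0.082 (adjusted p = 0.802). KRT6A stood at 430, 430 and 420 TPM in PGN+RVT and at 397, 424 and 417 TPM in PGN (0.048, 95% interval -0.039 to 0.14, adjusted p = 0.424). KRT17 stood at 540, 549 and 555 TPM in PGN+RVT and at 499, 517 and 527 TPM in PGN, without overlap (0.092, 95% interval 0.011 to 0.17, adjusted p = 0.122). KRT14 stood at 10.9, 11.7 and 10.99 TPM in PGN+RVT and at 7.66, 8.99 and 10.7 TPM in PGN (0.28, 95% interval 0.012 to 0.55, adjusted p = 0.148). In all, 6 of the 10 genes had groups that did not overlap, beside 36.1% of all tested genes.

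**Figure D2:**
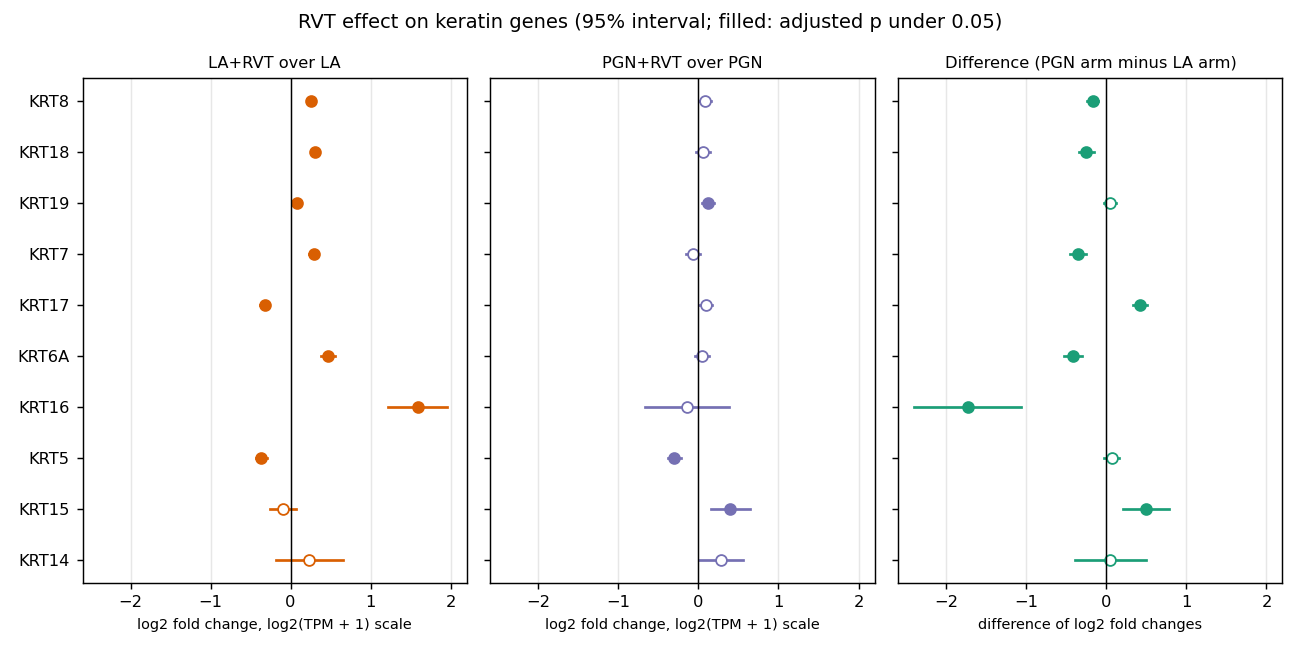
Log2 fold change on the log2(TPM + 1) scale of LA+RVT over LA (left) and of PGN+RVT over PGN (middle), and their difference (right), for each of the 10 genes; lines are 95% intervals of the limma fit and filled points have an adjusted p under 0.05. KRT16 stands at 1.59 in the LA arm and -0.15 in the PGN arm, and KRT5 lies below 0 in both.

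Whether the RVT effect differed between the stimuli was tested as the difference of the 2 log2 fold changes over all 12 libraries, PGN arm minus LA arm. It passed for 7 of the 10 genes, where 14.8% of all 15177 tested genes passed (7.73% higher and 7.03% lower in the PGN arm). The effect was lower in the PGN arm for KRT16 (-1.73 ± 0.31, adjusted p = 0.00339), KRT6A (-0.42 ± 0.053, adjusted p = 0.000404), KRT7 (-0.36 ± 0.045, adjusted p = 0.000404), KRT18 (-0.25 ± 0.041, adjusted p = 0.00215) and KRT8 (-0.17 ± 0.033, adjusted p = 0.00541, limma). It was higher in the PGN arm for KRT17 (0.42 ± 0.040, adjusted p = 7.02e-05) and KRT15 (0.50 ± 0.13, adjusted p = 0.0250). The call of KRT15 was lost in 6 of 20 alternatives, among them without LA replicates 1 and 3 (adjusted p = 0.0562 and 0.0626), LA+RVT replicate 2 (0.0527) and PGN+RVT replicate 3 (0.0560). For KRT5 the difference was 0.066 (95% interval -0.024 to 0.16, adjusted p = 0.332), for KRT19 0.044 (-0.031 to 0.12, adjusted p = 0.448) and for KRT14 0.047 (-0.40 to 0.49, adjusted p = 0.917). Levels themselves were not tested between LA and PGN libraries, which stand in separate tables.

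Since a type II keratin needs a type I partner, the balance within each library was also described. Among the 10 genes, the ratio of the 6 of type I to the 4 of type II was 1.08 ± 0.0105 in LA+RVT and 1.12 ± 0.00402 in LA, and 0.999 ± 0.0230 in PGN+RVT and 0.949 ± 0.0428 in PGN (SD, n = 3 each). This ratio leaves out the other keratins, among them the abundant type II gene KRT81. KRT8 over KRT18 was 1.05 ± 0.0149 in LA+RVT and 1.09 ± 0.00133 in LA, and 1.27 ± 0.0148 in PGN+RVT and 1.25 ± 0.0808 in PGN. KRT6A over KRT16 was 0.971 ± 0.147 in LA+RVT and 2.14 ± 0.403 in LA, and 2.71 ± 0.541 in PGN+RVT and 2.42 ± 0.772 in PGN. KRT5 exceeded KRT14 in all libraries, by 66.2 ± 10.9 times in LA+RVT and 112 ± 31.2 times in LA, and by 31.9 ± 1.25 times in PGN+RVT and 49.1 ± 6.97 times in PGN. In exact two-sided permutation tests 3 libraries against 3 cannot go below p = 0.1. All 4 ratios stood at that limit in the LA arm, and in the PGN arm KRT5 over KRT14 did (p = 0.1), while the type I to type II ratio (exact p = 0.2), KRT6A over KRT16 (exact p = 0.6) and KRT8 over KRT18 (exact p = 0.8) did not.

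**Figure D3:**
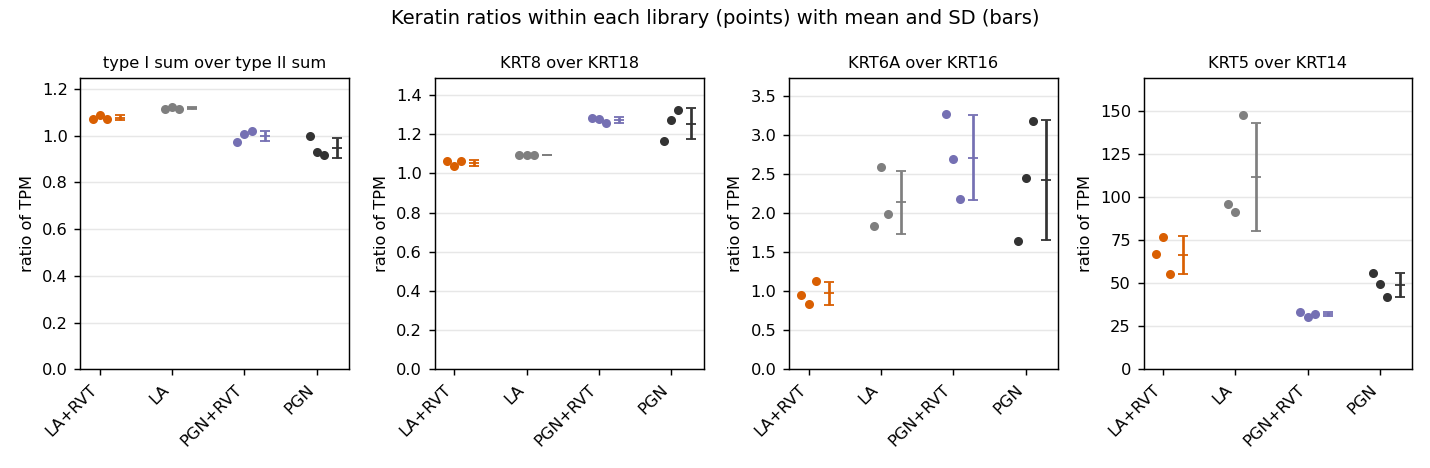
Ratios of TPM within each library, from 0, by group; points are libraries, and bars show the mean and SD of 3. KRT6A over KRT16 averages 0.971 in LA+RVT and 2.14 in LA, and KRT5 over KRT14 is 30.5 or more in every library.

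The 10 genes together summed to 8103, 8112 and 8053 TPM in LA+RVT and to 6876, 6885 and 7068 TPM in LA. This was 0.812% ± 0.00348 of the library in LA+RVT and 0.697% ± 0.0109 in LA (SD, n = 3 each), a ratio of 1.17 (exact permutation p = 0.1, the smallest possible). In the PGN arm they summed to 11009, 11273 and 11062 TPM in PGN+RVT and to 10704, 10921 and 10748 TPM in PGN, a ratio of 1.03 (exact permutation p = 0.1). With library medians equalised the log2 difference was 0.17 in the LA arm and -0.016 in the PGN arm, so the direction in the PGN arm rested on the scaling. Cytosolic ribosomal protein genes took 13.1% ± 0.123 of TPM in LA+RVT and 14.7% ± 0.276 in LA, and 15.3% ± 0.332 in PGN+RVT and 16.1% ± 0.150 in PGN. When these and the mitochondrially encoded genes were left out of the scaling, the calls of KRT5, KRT6A, KRT7, KRT8, KRT16, KRT17 and KRT18 in the LA arm and of KRT5 in the PGN arm remained.

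KRT5 was the gene that fell under both stimuli, and the 250 bases before its RefSeq start are shown for that reason (GRCh38.p14, chr12:52520395-52520644, minus strand). Of the 10 genes, 2 had an entry in the RefSeq table of promoters. Capitals mark the letters ATAAAA.
KRT5: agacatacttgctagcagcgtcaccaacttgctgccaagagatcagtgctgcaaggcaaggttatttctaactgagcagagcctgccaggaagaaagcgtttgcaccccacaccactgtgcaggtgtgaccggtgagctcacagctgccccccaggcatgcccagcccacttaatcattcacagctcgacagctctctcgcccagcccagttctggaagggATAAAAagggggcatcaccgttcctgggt
These letters, a variant of the TATA box that can overlap TATAAA, were found 1 time when both strands were searched, and 14.8% of 35116 promoter windows of the same length hold them. Not in this window on either strand are TATAAA (held by 10.7% of all windows), CCAAT (32%), the SP1 type box GGGCGG (42.6%), the AP-2 type GCCNNNGGC (19.8%) and the AP-1 type TGANTCA (6.57%).

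Beyond these 10, other keratin genes were expressed too. Each table lists 66 genes under keratin symbols, and these include pseudogenes such as KRT42P and KRT87P. Of the 66, 19 (LA) and 20 (PGN) had a mean of 1 TPM or more, none of them annotated as a pseudogene. Another 24 of the 66 were listed at 0 in every library, and how many of those are pseudogenes was not counted. With the 10 included, 9 of 19 rose and 3 fell in the LA arm, where 10.7% of all tested genes rose and 5.07% fell. In the PGN arm 4 of 20 rose and 2 fell, where 10.6% of all tested genes rose and 4.92% fell. The highest of the rest was KRT81, a type II keratin known from the hair cortex. KRT81 stood at 1826, 1881 and 1889 TPM in LA+RVT and at 1455, 1467 and 1483 TPM in LA (log2 fold change 0.35 ± 0.019, adjusted p = 0.000227). In the other arm KRT81 stood at 1903, 2045 and 1864 TPM in PGN+RVT and at 1327, 1405 and 1389 TPM in PGN (0.49 ± 0.043, adjusted p = 0.000747, limma). It thus reached the level of the simple-epithelial keratins and rose with RVT under both stimuli. KRT81 lies within the span of KRT86, on the opposite strand. Their coding sequences are 94.2% identical where they align, and 49.1% of the 50-base windows of KRT81 occur unchanged in KRT86. The levels of KRT81 and KRT86 therefore carry the uncertainty of shared reads and of the strand setting too. KRT86 stood at 10.7 ± 1.07 TPM in LA+RVT and 11.01 ± 0.669 in LA, and at 9.05 ± 0.567 in PGN+RVT and 9.56 ± 1.35 in PGN (SD, n = 3 each).

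KRT23, a type I keratin, also rose in both arms, with 272 ± 6.26 TPM in LA+RVT and 214 ± 1.37 in LA, and 354 ± 8.34 in PGN+RVT and 303 ± 4.78 in PGN (adjusted p = 0.000624 and 0.00754, limma). KRT80 rose in the LA arm, to 90.3 ± 2.38 TPM in LA+RVT, against 79.0 ± 2.79 in LA (adjusted p = 0.0218), and stood at 144 ± 4.36 in PGN+RVT and 131 ± 3.57 in PGN (adjusted p = 0.0826). KRT13, a keratin of mucosal epithelia, fell in the LA arm, to 2.65, 2.37 and 3.84 TPM in LA+RVT, against 8.27, 6.89 and 7.60 TPM in LA (log2 fold change -1.13 ± 0.16, adjusted p = 0.00504). It stood at 9.65 ± 0.462 TPM in PGN+RVT and 9.97 ± 0.374 in PGN (adjusted p = 0.738), and the difference of its effects passed (1.09 ± 0.17, adjusted p = 0.00178). KRT6B, the near copy of KRT6A, fell in the PGN arm, to 6.16, 6.01 and 6.07 TPM in PGN+RVT, against 12.97, 13.4 and 12.7 TPM in PGN (-0.99 ± 0.071, adjusted p = 0.000372). KRT6A, far more abundant at 426 TPM in PGN+RVT and 412 TPM in PGN, did not pass there. KRT10, KRT86, KRT6C, KRT4 and KRT9 passed in neither arm, KRT9 being under the filter in the LA table. KRT7-AS, an antisense transcript at KRT7, stood at 19.7 ± 0.505 TPM in PGN+RVT and 15.6 ± 0.571 in PGN (adjusted p = 0.0153), where KRT7 did not pass. In the LA arm KRT7-AS stood at 21.3 ± 0.748 TPM in LA+RVT and 18.2 ± 1.45 in LA (adjusted p = 0.0894, limma). The difference of its effects did not pass (0.11 ± 0.089, adjusted p = 0.487, limma). Whether reads of KRT7 entered these values was not tested.

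**Figure D4:**
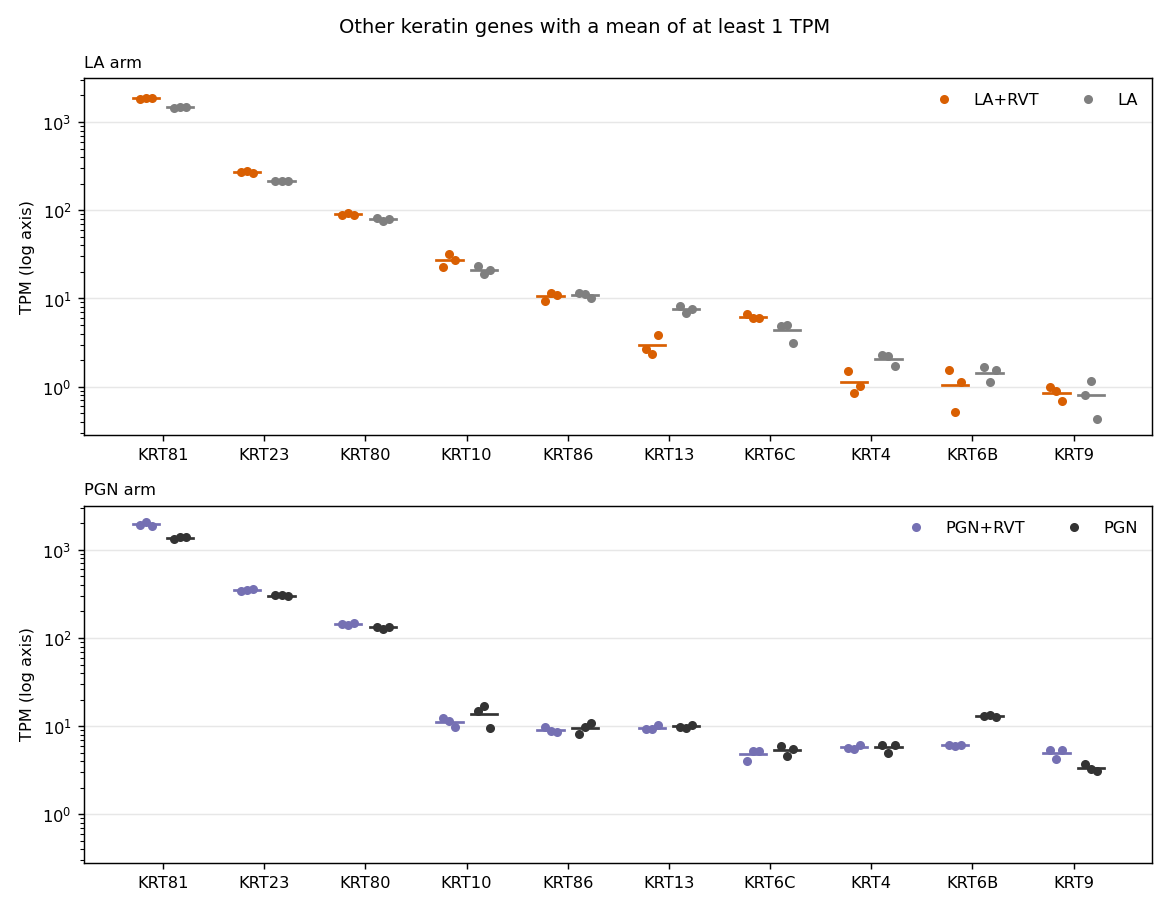
TPM (log axis) of the other keratin genes that averaged 1 TPM or more in either table, with LA+RVT and LA above and PGN+RVT and PGN below; points are libraries and bars are means of 3. KRT81 lies at 1327 TPM or more in every library, and KRT6B separates PGN+RVT at about 6.08 TPM from PGN at about 13.04 TPM.

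For KRT16, the genes with the most similar pair of log2 fold changes over the 2 arms were looked up among 8475 genes that averaged 10 TPM or more in both tables. The nearest was UBE2S, a ubiquitin-conjugating enzyme of mitosis, at a Euclidean distance of 0.075 (log2 fold changes 1.60 and -0.22 in the LA and PGN arms), then the RNA gene BCYRN1 at 0.26 and the gelatinase gene MMP9 at 0.30. UBE2S stood at 200, 223 and 166 TPM in LA+RVT and at 64.8, 62.7 and 62.7 TPM in LA, and at 84.0, 85.8 and 85.5 TPM in PGN+RVT and at 108, 140 and 64.2 TPM in PGN. LA+RVT replicate 3 and PGN replicate 3 were the lowest of their groups for both genes, while the lowest LA library was replicate 3 for UBE2S and replicate 2 for KRT16, and the highest PGN library replicate 2 for UBE2S and replicate 1 for KRT16. For KRT14 the nearest were RHBDD3, AC124068.1 and CYTH3 (distances 0.0064 to 0.0086), and for KRT19 INF2, CMBL and MORN2 (0.0031 to 0.0049). These distances lie below the SE of the fold changes in the LA and PGN arms, 0.18 and 0.12 for KRT14 and 0.020 and 0.029 for KRT19. The SE for KRT16 was 0.15 in the LA arm and 0.23 in the PGN arm, so the distance of UBE2S lies below both too. BCYRN1 spread widely, at 218, 111 and 55.3 TPM in LA+RVT and at 11.8, 46.6 and 52.2 TPM in LA. Which genes are nearest is therefore not resolved for KRT14, KRT16 and KRT19. KRT14 itself averaged 2.015 TPM in the LA table, under the limit of the search.

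Of 20 genes listed as keratin partners and cytolinkers, 4 rose and 2 fell in the LA arm (10.7% and 5.07% of all tested genes). In the PGN arm 6 rose and 1 fell (10.6% and 4.92% of all). The list also holds VIM and the nuclear lamin gene LMNA, and LMNA was the gene that fell in the PGN arm. The median log2 fold changes of the 20 genes were 0.090 in the LA arm and 0.086 in the PGN arm, beside 0.036 and 0.064 over the whole tables. TPM of these and of the genes that follow is given as mean ± SD (n = 3 each), and differences of effects with the SE. DNAJB6, a chaperone that binds KRT18, rose to 236 ± 13.1 TPM in LA+RVT, against 174 ± 7.66 in LA (adjusted p = 0.00255, limma). The cytolinker DST, or dystonin, rose to 48.8 ± 2.04 TPM in LA+RVT, against 41.003 ± 0.381 in LA (adjusted p = 0.0129), and the small heat shock protein gene HSPB1 fell to 577 ± 11.3 TPM in LA+RVT, against 634 ± 6.62 in LA (adjusted p = 0.00866). SFN, the 14-3-3 sigma protein of epithelial cells, rose to 368 ± 7.89 TPM in LA+RVT, against 320 ± 9.87 in LA (adjusted p = 0.00690), and to 452 ± 4.71 in PGN+RVT, against 386 ± 24.4 in PGN (adjusted p = 0.0233). JUP, the plakoglobin of desmosomes, rose in the PGN arm to 464 ± 8.89 TPM in PGN+RVT, against 374 ± 14.3 in PGN (adjusted p = 0.00343), and the cytolinker PPL, or periplakin, rose there to 120 ± 4.44 TPM, against 91.7 ± 3.67 in PGN (adjusted p = 0.00359). EVPL, or envoplakin, its partner, rose there to 48.1 ± 2.50 TPM in PGN+RVT, against 36.8 ± 2.49 in PGN (adjusted p = 0.0129). PPL fell in the LA arm, to 125 ± 2.37 TPM in LA+RVT, against 145 ± 6.46 in LA (adjusted p = 0.0135). The difference of the effects on PPL passed the test (0.60 ± 0.063, adjusted p = 0.000108).

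Of 22 transcription factors known for keratin genes, 5 rose and 4 fell in the LA arm (10.7% and 5.07% of all tested genes), and 4 rose and 7 fell in the PGN arm (10.6% and 4.92% of all). Their medians were -0.042 in the LA arm and -0.25 in the PGN arm, beside 0.036 and 0.064 over the whole tables. FOSL1, an AP-1 subunit, rose to 274 ± 16.9 TPM in LA+RVT, against 160 ± 6.19 in LA (adjusted p = 0.000390), and fell to 205 ± 11.4 in PGN+RVT, against 411 ± 25.2 in PGN (adjusted p = 0.000198, limma). SOX9, a factor of follicular and sebaceous progenitors, rose in both arms, to 42.8 ± 0.505 TPM in LA+RVT, against 24.8 ± 0.858 in LA, and to 39.3 ± 0.897 in PGN+RVT, against 22.4 ± 1.32 in PGN (adjusted p = 0.000256 and 0.000497). KLF5, a factor of basal epithelial cells, fell in both arms, to 58.0 ± 1.91 TPM in LA+RVT, against 87.1 ± 0.904 in LA, and to 84.9 ± 3.83 in PGN+RVT, against 111 ± 6.21 in PGN (adjusted p = 0.000358 and 0.00673). ELF3, an epithelial ETS factor, fell to 195 ± 12.5 TPM in LA+RVT, against 288 ± 8.69 in LA (adjusted p = 0.000952), and rose to 280 ± 2.98 in PGN+RVT, against 240.3 ± 5.13 in PGN (adjusted p = 0.00822). ETS1 rose to 29.8 ± 0.617 TPM in LA+RVT, against 21.7 ± 0.344 in LA (adjusted p = 0.00172), and fell to 25.7 ± 0.485 in PGN+RVT, against 50.5 ± 4.61 in PGN (adjusted p = 0.000473). NFE2L2, the factor of the oxidative stress response, fell to 59.5 ± 3.94 TPM in PGN+RVT, against 95.6 ± 6.96 in PGN (adjusted p = 0.00168). The difference of effects passed for FOSL1 (-1.76 ± 0.083), ETS1 (-1.38 ± 0.084), ELF3 (0.78 ± 0.061) and NFE2L2 (-0.52 ± 0.094). TP63, a factor of stratified epithelium, was low throughout and fell to 2.61 ± 0.104 TPM in PGN+RVT, against 5.29 ± 0.604 in PGN (adjusted p = 0.00533). Whether any of these factors acted on a keratin gene was not tested.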

How the data were processed

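SZ95 sebocytes gave 12 RNA libraries, assigned to groups by their titles, which also hold the replicate numbers. TPM was deposited by the authors in 2 tables, 1 per stimulus, with 2 decimals; columns summed to between 994373 and 997060. The build GRCh38.p13 and the tools RSEM 1.3.1, HISAT2 2.1.0 and DESeq2 1.24.0 are named, without role, per the submitters' processing notes; annotation and strand setting are not given in the sources used here. TPM holds no depth, so no counting interval was made. Genes averaging 1 TPM or more across the fitted libraries were tested on log2(TPM + 1) with limma 3.58.1 (R 4.3.3, trend option), two-sided, over each whole table; the code was tested on simulated data. The difference of effects used 12 libraries with 1 mean per group. The members, lists and tests were chosen with earlier results of these data known. Genes outside the 10 were named by expression of at least 1 TPM (keratins) or by the smallest p of a list, up to 4 per list and arm, and for KRT14, KRT16 and KRT19 as the 3 nearest in fold changes. VIM, TP63, SCD and KRT7-AS were added after their values were seen. LMNA, AWAT2, MC5R, DCN, TYR and KRT1 are also named outside these rules. Positions and coding sequences came from GENCODE 29, coding sequences as the longest open reading frame. Alternatives were the pseudocount (0.1), no filter, library scaling, pseudogenes and near copies added, the robust option, a replicate block and leaving out each library.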

Additional observations from a re-analysis of the deposited data

Results flagged for a closer look

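The effect of RVT differed between the PGN and LA arms for 7 of the 10 keratin genes by a test of the difference itself (limma over 12 libraries, PGN arm minus LA arm, log2). Of all 15177 tested genes 14.8% passed this test. The differences were -1.73 for KRT16, -0.42 for KRT6A, -0.36 for KRT7, -0.25 for KRT18 and -0.17 for KRT8, and 0.42 for KRT17 and 0.50 for KRT15. The call of KRT15 was lost in 6 of 20 alternatives, while the other calls held in all 20.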

How the results depend on the processing

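In the LA arm 7 or 8 of the 10 genes passed under every alternative, and in the difference of effects 6 or 7; in the PGN arm 3 passed, but 1 (KRT5) without a filter, with medians equalised, without mitochondrial and ribosomal protein genes in the scaling and with the replicate block, and 1 to 2 when 1 library was left out. The cause was not tested. All genes called in the LA arm numbered 2426, but 1610 without a filter, 1502 with the block and 1428 to 1690 without 1 library. In the PGN arm they numbered 2277, but 1384 without a filter and 1095 to 1861 without 1 library. With medians equalised 1041 genes were higher and 1080 lower in the LA arm, against 1645 and 781, and 850 and 1020 in the PGN arm, against 1557 and 720. Signs turned only where no call stood: with medians equalised for KRT6A (-0.010), KRT18 (-0.00045) and the sum of the 10 genes (-0.016) in the PGN arm; without PGN replicate 1 for KRT16 (-0.36 to 0.082 over the libraries left out), KRT6A over KRT16 (-0.062 to 0.42) and KRT8 over KRT18 (-0.029 to 0.063) in the PGN arm; and in the difference for KRT14 with a pseudocount of 0.1 (-0.034) and without 1 library (-0.059 to 0.18). Same-numbered libraries deviated with correlations of -0.070 to 0.041, and libraries of different number with -0.041 to 0.058. Whether same-numbered libraries shared a culture or batch cannot be told from these values. The block ended the calls of KRT19 in the LA arm (adjusted p = 0.0683), of KRT15 and KRT19 in the PGN arm and of KRT15 in the difference (0.0518). Depth is unknown, so counting error could not be given.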

Other observations

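Of the genes of squamous differentiation tested in the PGN arm, 2 of 14 rose and 7 fell with RVT, where 10.6% of all tested genes rose and 4.92% fell, with a median log2 fold change of -0.50 beside 0.064 over all tested genes. TPM is given as mean ± SD (n = 3 each) and log2 values with the SE. FLG, the precursor of filaggrin, fell to 1.04 ± 0.0902 TPM in PGN+RVT, against 6.37 ± 0.223 in PGN (adjusted p = 0.000215, limma), and SPRR1B, a cornified envelope precursor, to 84.3 ± 6.95 TPM, against 156 ± 1.46 in PGN (adjusted p = 0.000372). KLK7, a protease of the horny layer, rose to 53.8 ± 3.46 TPM in PGN+RVT, against 29.9 ± 1.36 in PGN (adjusted p = 0.000507). SPRR3, of the same family as SPRR1B, fell to 14.6 ± 1.09 TPM, against 26.9 ± 1.81 in PGN (adjusted p = 0.00112). In the LA arm 2 of 13 tested rose and 4 fell, where 10.7% of all tested genes rose and 5.07% fell. SPRR1B rose there, to 29.4 ± 1.48 TPM in LA+RVT, against 19.0 ± 1.85 in LA (adjusted p = 0.00421). SERPINB3, a serpin of squamous cells, fell to 2.19 ± 0.0503 TPM in LA+RVT, against 10.6 ± 1.03 in LA (adjusted p = 0.000213), and its near copy SERPINB4 to 0.427 ± 0.122 TPM, against 2.58 ± 0.371 in LA (adjusted p = 0.00378), while the protease gene KLK5 rose to 86.2 ± 2.52 TPM, against 66.1 ± 2.39 in LA (adjusted p = 0.00209). The difference of the effects on SPRR1B passed (-1.50 ± 0.10, adjusted p = 7.83e-06). KRT1, the type II keratin of the upper epidermis, was listed at 0 in every LA-arm library.

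Of the sebocyte markers, 1 of 11 tested passed in the LA arm, lower with RVT, where 15.7% of all tested genes passed. In the PGN arm 3 of 10 rose and 2 fell, where 10.6% of all tested genes rose and 4.92% fell. MUC1, a membrane mucin, fell to 87.7, 101 and 75.9 TPM in LA+RVT, against 127, 143 and 116 TPM in LA (adjusted p = 0.0242). PPARG (log2 fold change -0.72 ± 0.056, adjusted p = 0.000473) and the transcriptional repressor gene PRDM1 (-0.85 ± 0.11, adjusted p = 0.00373) fell in the PGN arm, and the lipid enzymes FADS2 (1.07 ± 0.084), FASN (0.67 ± 0.084) and SCD (0.46 ± 0.067) rose there.

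Among markers of other cell types, CD74 (log2 fold change -1.54 ± 0.10, adjusted p = 0.000398) and CDH5 (-1.22 ± 0.076, adjusted p = 0.000328) fell and CD68 (0.21 ± 0.049, adjusted p = 0.0309) and MITF (0.34 ± 0.062, adjusted p = 0.0134) rose in the LA arm. Of those tested there, 1 of 3 immune markers rose and 1 fell, and 1 of 3 melanocyte markers rose. CDH5 was the 1 endothelial marker tested, and 0 of 4 fibroblast markers passed, where 15.7% of all tested genes passed. In the PGN arm CD68 (0.60 ± 0.053, adjusted p = 0.000796) and PMEL (0.62 ± 0.099, adjusted p = 0.00799) rose (limma). These were 1 of 3 immune and 1 of 2 melanocyte markers tested, and 0 of 3 fibroblast markers passed, where 15.6% of all tested genes passed. CD74 (-0.21 ± 0.16, adjusted p = 0.436) and CDH5 (-0.11 ± 0.060, adjusted p = 0.262) did not pass in the PGN arm (limma).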
